A study of Mus musculus with 12 samples.

Results

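Ribosome-bound RNA of the choroid plexus (ChP) was compared between the dark and the light phase, in 3 libraries of 9 p.m. against 3 of 9 a.m. These were the 6 libraries that the sample labels mark as TRAP, of 12 in the series, and the other 6 held the unbound RNA of the supernatant. All 24327 genes of the expression table were considered, and the 10563 whose FPKM averaged above 1 in the 6 libraries were tested. Both groups carried the same alleles, a Foxj1-Cre transgene and a floxed EGFP-L10a allele, each in one copy, and were male mice labelled 60 days old with free access to food. Each library held the lateral ventricle (LV) ChP of 3 pooled mice. Cre driven by Foxj1, a transcription factor of ciliated epithelium, put the tag on RPL10A in ChP epithelial cells, and also acts in ependymal cells that line the ventricles. Cre-negative mice were not analysed here. The pools held different mice and came from a single experiment, so the p-values measure the spread between pools of that experiment.

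The ChP epithelium makes cerebrospinal fluid and secretes proteins into it, and forms the barrier between blood and this fluid. In translating ribosome affinity purification (TRAP), a tagged protein of the large ribosomal subunit is pulled down together with the mRNA on the ribosome. A transcript can be more abundant in the pulldown because there is more of it or because more of it sits on ribosomes. Mice are active in the dark, and in most of their tissues a transcriptional clock runs with a period near a day, in which BMAL1 (encoded by Arntl) and CLOCK drive the genes of their own repressors, the PER and CRY proteins.

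FPKM counts sequenced fragments, scaled for transcript length and for the library's mapped reads, so every value is relative to the other RNA of its library. In bulk tissue, fewer cells of a type and less RNA per cell cannot be told apart. Read depth is unknown, since the values hold no counts. FPKM summed over coding genes ranged from 258518 to 386183 per library. Rows of microRNA genes held 75.4%, 54.5% and 68.0% of all FPKM at 9 a.m. and 63.8%, 45.4% and 69.6% at 9 p.m. The share of tested genes listed at 0 was 16.7%, 6.17% and 31.4% at 9 a.m. and 18.7%, 4.25% and 15.6% at 9 p.m., so 9 a.m. replicate 3 stood apart with the most genes at 0. Across the tested genes, log2(FPKM + 1) of libraries of one time correlated at Pearson's r between 0.571 and 0.691. That of libraries of different times lay between 0.529 and 0.783, the highest being for replicate 2 of 9 a.m. with replicate 2 of 9 p.m. Genes are not independent replicates, and these correlations describe the libraries. A value of 0 also occurs here for genes used by every cell, so a gene is given as listed at 0, and no fold change is printed where every library of a time is at 0.

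Markers of the epithelium were at high levels at both times. The 12 epithelial markers held 9.74% to 11.1% of the coding FPKM at 9 a.m. and 12.2% to 15.3% at 9 p.m., most of it Ttr, which encodes transthyretin, the carrier of thyroid hormone in the fluid. All 12 were above an FPKM of 1 in every library. Markers of endothelium held at most 0.00905% of the coding FPKM in any library, those of stroma and mural cells at most 0.0116%, of macrophages at most 0.00441%, of neurons at most 0.00646% and of glia at most 0.0239%. Of the 12 markers of macrophages 7 were listed at 0 in all 6 libraries, and of those of neurons 5. Foxj1 itself had 37.9, 45.8 and 62.4 FPKM in the libraries of 9 a.m. and 88.2, 72.7 and 76.3 in those of 9 p.m. All 3 libraries of 9 p.m. thus lay above those of 9 a.m. for the mouse's own Foxj1, while Cre came from a separate transgene. Rpl10a was at 5.70, 11.5 and 0 FPKM and at 11.5, 3.09 and 0.846, and reads of the tagged copy, of the gene and of its pseudogenes cannot be told apart.

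No gene passed the test between 9 p.m. and 9 a.m. By limma on log2(FPKM + 1), 0 of 10563 genes (0%) passed, a call needing an adjusted p below 0.05 and a log2 fold change beyond 0.4 in size, and the lowest adjusted p was 0.146. Without adjustment, p was under 0.05 for 312 genes of higher and 106 of lower mean in the dark phase, 3.96% of those tested. The 3 libraries of 9 p.m. lay above all 3 of 9 a.m. for 602 genes (5.70%) and below them for 310 (2.93%). Means were higher at 9 p.m. for 56.9% of the genes, where here and below a higher or lower mean is that of log2(FPKM + 1), and over all genes the median fold change was 0.16 on the log2 scale. This surplus on the 9 p.m. side depended on the scale. With coding genes scaled to equal sums the median was -0.04, with 391 genes above and 525 below, and under quantile normalization it was -0.02, with 456 and 566. Among the 4713 genes above an FPKM of 1 in every library the median was 0.06, with 281 genes above and 197 below. Without 9 a.m. replicate 2, limma called 4 genes higher (Hspe1, Atp5j2, Dydc2 and Mrpl13) and 1 lower (Mir8094). That replicate was the 9 a.m. library with the fewest tested genes at 0 (6.17%). It held the highest 9 a.m. values of Hspe1, Atp5j2 and Mrpl13, and the 9 a.m. value of 0 for Mir8094. Genes were named by a rule on p, separation and level, and Fkbp5, Ddit4, Zbtb16, Sgk1, Klf9, Hsp90b1, Frem2, Cldn2, Ocln and Otx2 were added to it after their values were seen. Below, fold changes stand beside a median of 0.16 over all genes, and counts of higher means beside 56.9%. Counts of separated members stand beside 5.70% and 2.93%. Where 3 values and then 3 more are given for a gene, the first are replicates 1, 2 and 3 of 9 a.m. and the others those of 9 p.m.

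Clock genes were among those that did not overlap, with 3 transcriptional activators lower at 9 p.m. and 3 repressors higher. Clock, on chromosome 5 of mm10 from 76209868 to 76304792, encodes a subunit of the activating dimer. Its FPKM was 46.5, 49.9 and 44.8 in the libraries of 9 a.m. and 15.7, 21.4 and 38.2 in those of 9 p.m., with a log2 fold change of -0.97 ± 0.50 (standard error). The 9 a.m. libraries were close together, and 9 p.m. replicate 3 came nearest to them. Arntl, which encodes its partner, was at 2.75, 2.34 and 23.1 FPKM and at 0, 0.675 and 0. Npas2, a relative of Clock that can replace it, was at 2.37, 4.45 and 11.6 FPKM and at 0, 2.33 and 0. For both genes the highest value came from 9 a.m. replicate 3, and the times did not overlap with or without it. For Npas2 the nearest libraries nearly touched, at 2.37 FPKM in 9 a.m. replicate 1 and 2.33 in 9 p.m. replicate 2. Of the 6 genes of the positive limb, these 3 lay below at 9 p.m. and none above, and the list's median log2 fold change was -1.04, against 0.16 over all genes.

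Among the repressors, Per1 had 12.1, 22.8 and 20.3 FPKM in the libraries of 9 a.m. and 23.9, 26.6 and 29.0 in those of 9 p.m. The step was small, 0.55 ± 0.55 on the log2 scale, and the nearest libraries of the 2 times nearly touched. Per2 was at 0.906, 3.12 and 4.05 FPKM and at 8.94, 6.74 and 15.2. Bhlhe40, which encodes the repressor DEC1, was at 6.84, 8.37 and 0 FPKM and at 23.6, 25.3 and 14.8, a log2 fold change of 2.37 ± 1.01. For these 3 genes each library of 9 p.m. lay above each of 9 a.m. The other repressors overlapped. Per3 was at 1.1, 1.42 and 21.6 FPKM and at 6.72, 7.35 and 6.79, so that its 9 p.m. libraries were alike and 9 a.m. replicate 3 stood above them. Cry1 was at 17.2, 6.37 and 0 FPKM and at 12.2, 11.7 and 10.8, and Cry2 at 6.25, 19.3 and 5.93 and at 45, 10.9 and 6.35. The signs for Cry2 and Nr1d1 turned without 9 p.m. replicate 1. Nr1d1, which encodes the nuclear receptor REV-ERBα that represses Arntl, was at 16.7, 16.8 and 1.91 FPKM and at 1.24, 12.1 and 6.78. In all, 11 of the 12 repressors tested had a higher mean of log2(FPKM + 1) in the dark phase. The median log2 fold change was 0.66, and 3 of 12 did not overlap. For Per3 and Nr1d2 the mean FPKM was lower (6.95 against 8.03, and 21.3 against 21.6). Nr1d2, with a log2 fold change of 0.006, ranged from -0.27 to 0.47 under the alternatives run.

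Of the 7 output genes, which clock proteins drive in turn, none was separated between the times. Dbp, a transcription factor with a strong daily rhythm in many tissues, had 0, 11.7 and 79.2 FPKM in the libraries of 9 a.m. and 138, 30.7 and 44.7 in those of 9 p.m. Its values at 9 a.m. were widely spread, and that of replicate 3 lay among those of 9 p.m. Tef, of the same family, was at 16.4, 22.2 and 36.3 FPKM and at 44.5, 36.2 and 43.7, and the times overlapped by a narrow margin. Nfil3, which competes with both for their sites, was at 6.13, 4.10 and 9.67 FPKM and at 0, 5.92 and 0.

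**Figure D1:**
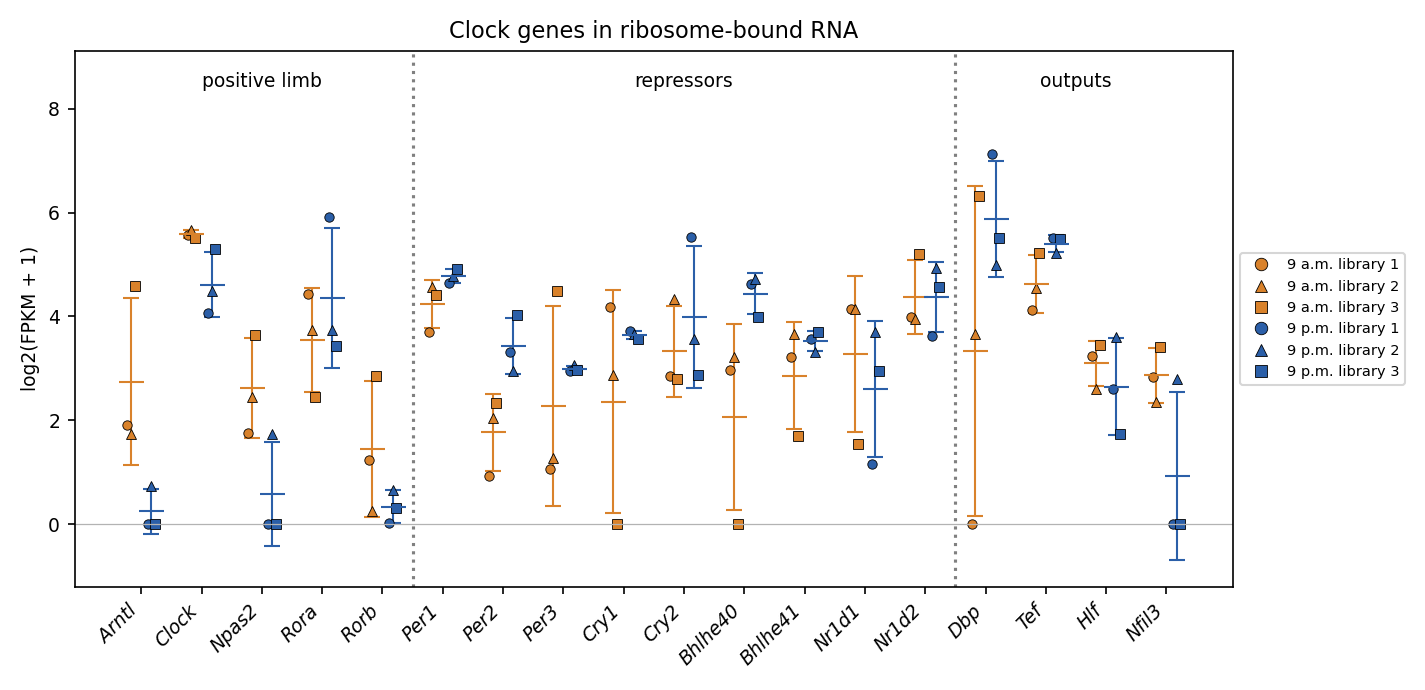
Clock genes in ribosome-bound RNA, as log2(FPKM + 1) per library, with the mean and SD of 3 libraries for each time (9 a.m. in orange, 9 p.m. in blue). Arntl, Clock and Npas2 lie lower at 9 p.m. and Per1, Per2 and Bhlhe40 higher with no overlap, while the single value of 23.1 FPKM for Arntl comes from 9 a.m. replicate 3.

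BMAL1 and CLOCK bind the E-box, and the promoters of the clock genes are shown here for where they hold that motif next to the values above. The search was for the letters CACGTG, which read the same on both strands, in the 300 bases from 250 before to 50 after each RefSeq start (GRCm38.p6, the assembly of mm10). Of the 26 clock genes 21 had a promoter in the table, and 5 of these (23.8%) held the motif, against 8.09% of all 27025 genes with a promoter. None of the 5 activator genes in the table held it. The windows of 30 bases run 5′ to 3′ along the strand of the gene, with the motif in capitals.
Per1, chr11:69098771-69098800, + strand, 166 bases before the start: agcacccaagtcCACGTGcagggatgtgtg
Cry1, chr10:85185097-85185126, - strand, 60 bases before the start: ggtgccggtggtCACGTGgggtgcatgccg
Bhlhe41, chr6:145865556-145865585, - strand, 153 bases before the start: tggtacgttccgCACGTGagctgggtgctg
Tef, chr15:81802534-81802563, + strand, 127 bases before the start: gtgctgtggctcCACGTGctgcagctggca
Of these 4, Per1 was separated between the times and Cry1, Bhlhe41 (8.28, 11.7 and 2.25 FPKM in the morning, 10.8, 8.96 and 12 in the evening) and Tef were not. The fifth gene, Ciart, was at 0 in 5 libraries and at 2.31 FPKM in 9 p.m. replicate 2, and was not tested. A match describes the letters of this window and is no evidence of binding.

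Glucocorticoids are another daily signal, since their level in mouse blood peaks near the start of the dark phase. Of 15 tested genes known to respond to them, 5 lay above at 9 p.m. (Per1, Dusp1, Fkbp5, Ddit4 and Zbtb16), 1 lay below, and the median log2 fold change was 0.59, or 0.35 with equal sums. Fkbp5, a cochaperone of the glucocorticoid receptor, had 2.43, 1.07 and 0 FPKM in the libraries of 9 a.m. and 10.4, 5.92 and 8.35 in those of 9 p.m. Dusp1, a phosphatase of MAP kinases, was at 3.23, 4.67 and 0.188 FPKM and at 11.8, 8.90 and 31.3. These 2 lay at low levels, with no overlap between the times. Cdkn1a, which encodes the cell cycle inhibitor p21, was the one that lay below, at 97.7, 52.3 and 41.7 FPKM and then at 16.0, 17.6 and 9.32, a log2 fold change of -2.04 ± 0.54. Sgk1 and Klf9, which are responsive in many tissues, overlapped, Sgk1 at 68.2, 157 and 156 FPKM and at 213, 145 and 185. Among the genes above an FPKM of 1 in every library, 6 of this list remained and their median was 0.11.

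The genes of lowest p whose mean was higher at 9 p.m. shared a pattern of low or absent signal at 9 a.m. First was Hspe1, the lid of the mitochondrial chaperonin, on chromosome 1 from 55088132 to 55091307. It had 4.07, 5.39 and 1.16 FPKM in the libraries of 9 a.m. and 149, 68.2 and 112 in those of 9 p.m., with a log2 fold change of 4.68 ± 0.65 (limma adjusted p = 0.146, and from 0.0431 to 0.985 under the alternatives run). Mrpl52, of the mitochondrial ribosome, had the same adjusted p. All other genes named below had limma adjusted p values of 0.941 or above. Tmem205, a membrane protein, was at 0, 4.13 and 14.5 FPKM and at 154, 73.8 and 65.2. Mrpl32, of the same ribosome, was at 7.23, 2.0 and 0 FPKM and at 196, 53.2 and 27.7, and Mrpl18 at 6.08, 10.4 and 4.75 and at 46.2, 33.3 and 52.6. Polr3c, a subunit of RNA polymerase III, was at 0, 2.97 and 0 FPKM and at 47.4, 23.1 and 27.1. S100a6, a small calcium-binding protein, was at 0, 0.219 and 0 FPKM and at 35.4, 22.5 and 10.8. Of the 15 genes, Sec61g, Rpl36a and Nipsnap3b were listed at 0 in every 9 a.m. library, where no fold can be given.

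Some of these 15 genes encode proteins of the endoplasmic reticulum (ER), a grouping made after their values were seen, while of the lists for the ER the translocon had 2 of 22 members above, glycosylation 0 of 15 and ER folding 0 of 29. Emc4, a subunit of the complex that inserts membrane proteins, had 6.28, 3.07 and 0 FPKM in the libraries of 9 a.m. and 45.8, 38.9 and 58.2 in those of 9 p.m. The gene Sec61g, for part of the channel that secretory proteins enter, reached 42.8, 18.9 and 45.8 FPKM in the libraries of 9 p.m. Creb3, a transcription factor held in the ER membrane, was at 4.81, 19.6 and 3.08 FPKM and at 89.6, 51.0 and 57.5. Ufsp2 and Ddrgk1 belong to the pathway that attaches the ubiquitin-like protein UFM1 to ribosomes at the ER. Ufsp2, which cleaves UFM1, was at 3.56, 8.17 and 4.09 FPKM and at 83.2, 72.5 and 20.9, and Ddrgk1, a part of the ligase, was at 7.11, 30.5 and 12 and at 120, 93.4 and 43.1. That the pair belongs to one pathway was noticed after their values were seen. Exons of Hspe1, Tmem205, Emc4, Creb3, Ufsp2, Mrpl18 and Ino80e, and of Dbp, Nr1d1, Dusp1, Ndufb5, Mrpl13, Mrps25, Yars, Atp6v1e1, Tcp1 and Cab39l, overlap those of a coding gene on the opposite strand, and those of Mrps24 one on the same strand, and without a stated strand setting reads of the partners cannot be told apart.

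Genes of lowest p with a lower mean at 9 p.m. included some with steady levels. Itgb8, on chromosome 12 from 119158022 to 119238802, encodes the β8 integrin subunit, which activates TGF-β. It had 132, 138 and 124 FPKM in the libraries of 9 a.m. and 53.0, 48.1 and 61.8 in those of 9 p.m., or 131 ± 6.88 and 54.3 ± 6.97 (SD, n = 3 each). The log2 fold change was -1.26 ± 0.35 and stayed between -1.50 and -1.18 under every alternative run. Its libraries lay close together within each time, and the gap between the times was wider than their spread. Fam189a2, a membrane protein, was at 90.0, 72.2 and 104 FPKM and at 4.69, 37.0 and 35.3. Tceb1, which encodes elongin C, was at 76.7, 34.8 and 79.9 FPKM and at 4.43, 19.2 and 5.47, a log2 fold change of -2.77 ± 0.67. Ddx19a, an RNA helicase of mRNA export, was at 22.4, 44.2 and 46.5 FPKM and at 3.42, 17.5 and 5.59. Gadd45g, a stress-responsive gene as Cdkn1a is, was at 42.2, 16.6 and 53.2 FPKM and at 0.330, 7.90 and 0.151.

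Others of this group held zeros at 9 p.m. Nudt7, a peroxisomal hydrolase of coenzyme A, had 71.4, 55.8 and 198 FPKM in the libraries of 9 a.m. and 0, 43.8 and 3.77 in those of 9 p.m. Efhc2, a protein of cilia, was at 21.6, 16.1 and 49.3 FPKM and at 0, 5.85 and 0.789. In most of these genes 9 p.m. replicate 2, the library with the fewest genes at 0, came nearest to the 9 a.m. level. Psmg2, an assembly chaperone of the proteasome, and D630024D03Rik were listed at 0 in all 3 libraries of 9 p.m. Psmb2, a subunit of the proteasome core, was at 94.0, 61.3 and 239 FPKM and at 26.5, 56.3 and 27.4. Mir8094 had 581, 0 and 6357 FPKM in the morning and 0 in every library of the evening, and the times overlapped.
Mature miR-8094, chr17:35251314-35251334, + strand, seed of bases 2 to 8 in capitals: aACUGAAGgacaacgagaaga
The mature sequence is shown because of where it lies. Its hairpin of 117 bases (RefSeq, GRCm38.p6) shares 90 bases with a coding exon of Ddx39b on the same strand, so that reads of this mRNA and of the microRNA gene cannot be told apart.

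In most of the mitochondrial lists more members had higher than lower means at 9 p.m., and few were separated. Of 47 tested proteins of the large subunit of the mitochondrial ribosome 35 had a higher mean, 9 lay above (19.1%) and 1 below, and the median log2 fold change was 0.90. Mrpl13 had 3.94, 55.7 and 0 FPKM in the libraries of 9 a.m. and 127, 153 and 84.7 in those of 9 p.m. Of the 30 proteins of the small subunit 23 had a higher mean, with 3 above and 1 below. Mrps25 was at 0, 8.2 and 2.45 FPKM and at 23.9, 17.6 and 16.5, while Mrps24 was at 21, 22.0 and 97.5 and at 4.5, 7.98 and 17.2. Among the 16 and 8 members above an FPKM of 1 in every library, the medians were 0.34 and -0.28, against 0.90 and 1.26 over all tested members, which were 0.59 and 0.52 without 9 a.m. replicate 3.

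Oxidative phosphorylation is the chain of complexes that turns electron transport into ATP. Of 35 tested subunits of complex I 27 had a higher mean in the dark phase, 2 were separated, and the median was 0.54 on the log2 scale, or 0.33 with equal sums. Ndufb5 had 8.34, 46.0 and 0 FPKM in the libraries of 9 a.m. and 128, 140 and 94.6 in those of 9 p.m., and Ndufc2 had 61.5, 43.2 and 2.05 and then 342, 87.0 and 162. Of 16 subunits of complex V, the ATP synthase, 14 had a higher mean, with a median of 0.80, and none was separated. Atp5j2 was at 81.2, 383 and 69.3 FPKM and at 690, 628 and 357, so that only 9 a.m. replicate 2 reached into the range of 9 p.m. Complex V held 0.812%, 2.05% and 2.04% of the coding FPKM at 9 a.m. and 2.28%, 2.70% and 1.52% at 9 p.m., and complex I 1.14%, 1.77% and 1.69% and 2.13%, 2.30% and 1.35%. In both, 9 p.m. replicate 3 fell within the range of 9 a.m. Complex IV, cytochrome c oxidase, had 9 of 13 members higher and a median of 1.05, which was 0.29 without 9 a.m. replicate 3. Complex III had 7 of 9 members higher and complex II 2 of 4, with none separated. Their medians of 0.23 and 0.33 were -0.009 and 0.09 with equal sums. Of 25 tested genes of mitochondrial import and chaperones 15 had a higher mean and 1 lay above. The median of that list was 0.21, or 0.0008 with equal sums.

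Enzymes of the citric acid cycle gave some of the more even values. Cs, citrate synthase, had 44.6, 51.1 and 33.2 FPKM in the libraries of 9 a.m. and 69.5, 83.5 and 81.3 in those of 9 p.m., with a log2 fold change of 0.86 ± 0.40. Idh2, which makes NADPH in mitochondria, was at 85.8, 122 and 91.5 FPKM and at 153, 150 and 124. Mdh2, malate dehydrogenase, was at 170, 161 and 43.9 FPKM and at 218, 224 and 183. These 3 of the 23 tested lay above at 9 p.m. and none lay below, and the list's median was 0.25, or 0.01 with equal sums and 0.09 under quantile normalization. Cpt2, which readies fatty acids for oxidation, was at 16.8, 39.0 and 14.7 FPKM and at 56.9, 48.7 and 48.2. Pfkl, a phosphofructokinase of glycolysis, lay below, at 34.6, 39.1 and 36.4 FPKM and then at 26.4, 25.9 and 21.7.

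Translation factors mostly had higher means as well. Of 44 tested initiation and elongation factors 35 had a higher mean at 9 p.m., 4 lay above (9.09%) and none below, and the median log2 fold change was 0.42, or 0.18 with coding genes scaled to equal sums. Eef2, which moves the ribosome along the mRNA, had 202, 275 and 240 FPKM in the libraries of 9 a.m. and 293, 363 and 393 in those of 9 p.m. Eif3c, a scaffold of the initiation factor eIF3, was at 175, 210 and 133 FPKM and at 222, 234 and 284. Eif5a was at 116, 119 and 48.6 FPKM and at 209, 259 and 124. The gap between the times was narrow for each of the 3. Of the 20 tRNA synthetases 3 lay above (15%), Yars at 3.06, 4.81 and 1.1 FPKM and then at 11.6, 13.8 and 20.6, with Wars and Qars. Their median of 0.55 was 0.06 without 9 a.m. replicate 3.

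Cytosolic ribosomal proteins have many near-identical pseudogenes, so their values are uncertain. Of 38 proteins of the large subunit 27 had a higher mean at 9 p.m. and 3 were separated, and of 25 of the small subunit 20 and 2. Rps9 had 34.7, 65.7 and 45.1 FPKM in the libraries of 9 a.m. and 216, 170 and 82.0 in those of 9 p.m. The 11 members of the large subunit above an FPKM of 1 in every library had a median of 0.01, against 0.66 over all 38 tested. Genes of the mTOR and AMPK pathways, which set translation by nutrients, were split, with 16 higher and 14 lower means. Lamtor2 and Lamtor5, of the Ragulator complex that brings mTOR to the lysosome, lay above, Lamtor2 at 22.2, 38.3 and 22.2 FPKM and then at 44.9, 111 and 202. Prkab1, a subunit of AMPK, and Sesn2, which restrains mTOR when amino acids are short, lay below, at 16.0, 14.9 and 28.3 FPKM and then 6.26, 7.66 and 5.60, and at 10.7, 11.5 and 20.8 and then 4.19, 5.98 and 3.95.

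**Figure D2:**
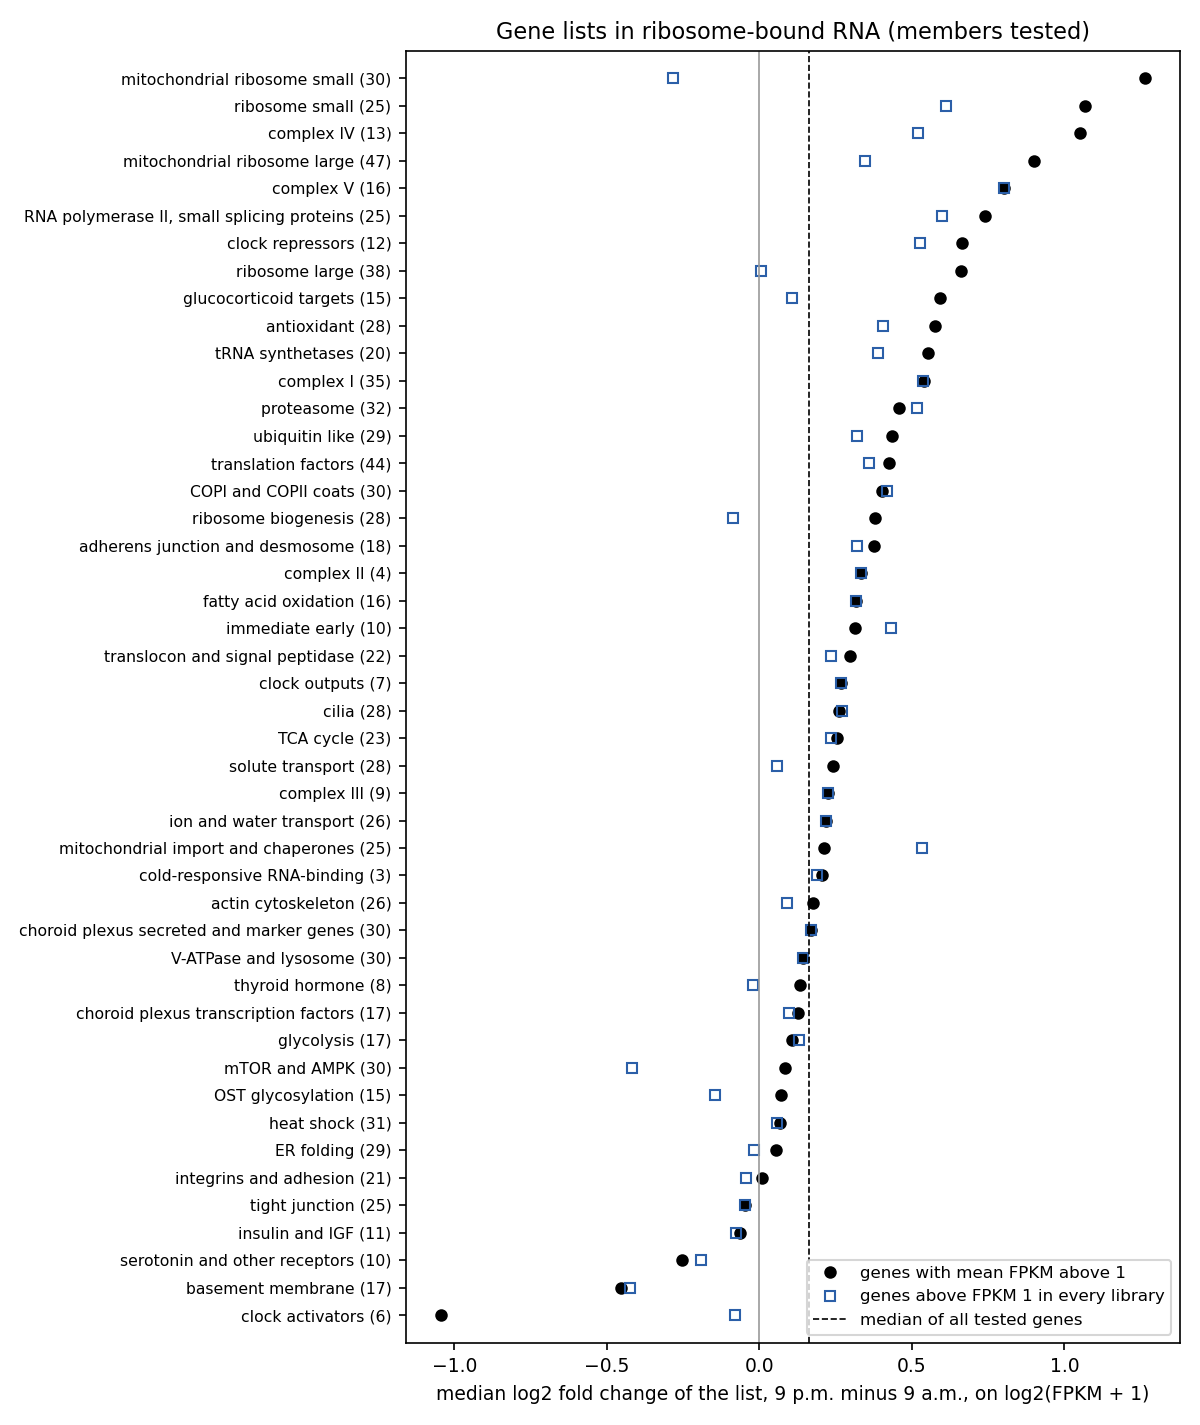
Median log2 fold change (9 p.m. minus 9 a.m., on log2(FPKM + 1)) of 46 gene lists in ribosome-bound RNA, over the members tested (filled, number in brackets) and over those above an FPKM of 1 in every library (open). The dashed line is the median of all tested genes, 0.16, and open symbols of the mitochondrial and cytosolic ribosome lists lie below the filled ones.

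Chaperones of the ER were among the genes that lay below at 9 p.m. The 29 genes of ER folding held 1.45%, 1.44% and 1.46% of the coding FPKM at 9 a.m. and 1.31%, 0.974% and 1.18% at 9 p.m., with no overlap, but their summed FPKM, at 3761, 4838 and 4446 and at 4799, 3761 and 3647, did overlap. Hspa5, which encodes the main ER chaperone BiP, was at 554, 448 and 477 FPKM and at 354, 305 and 367, a log2 fold change of -0.52 ± 0.28. Hyou1, which recharges BiP, was at 67.4, 43.9 and 71.8 FPKM and at 29.0, 32.0 and 38.4, and Dnajc3, a cochaperone, at 89.5, 59.9 and 61.6 and at 55.4, 49.9 and 43.7. These 3 lay below at 9 p.m. (10.3%) and no member lay above, and for each of the 3 the fold change kept its sign under every alternative run. Over all 29 members the median was 0.05, and it turned to -0.09 with coding genes scaled to equal sums and to -0.06 under quantile normalization. Hsp90b1, at 853, 1174 and 1026 FPKM and at 880, 677 and 747, overlapped by 1 library.

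Entry into the ER and transport from it gave mixed values. Sec61a1, the pore of the channel, had 20.6, 27.6 and 16.0 FPKM in the libraries of 9 a.m. and 52.5, 30.1 and 37.2 in those of 9 p.m., and of 22 members of the translocon and signal peptidase it and Sec61g were separated. Among 30 coat proteins of the vesicles between ER and Golgi, 2 lay above and 2 below. Sec24c, which selects cargo for the COPII coat, was at 30.1, 43.9 and 24.5 FPKM and at 17.8, 17.1 and 21.2, while its paralog Sec24b was at 20.6, 19.2 and 25.4 and at 51.2, 31.0 and 27.1. The 2 paralogs thus lay on opposite sides. The catalytic and regulatory subunits of the proteasome had 24 of 32 higher means, with 3 above and 1 below. Psmd12 was at 24.0, 32.1 and 14.0 FPKM and at 38.3, 57.5 and 46.4.

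In the lysosome and among cytosolic chaperones, genes of high level without overlap included Atp6v1e1 and Hspa8. Atp6v1e1, a subunit of the proton pump that acidifies lysosomes, had 135, 144 and 46.0 FPKM in the libraries of 9 a.m. and 280, 245 and 225 in those of 9 p.m., with a log2 fold change of 1.36 ± 0.44. In all, 6 of 30 members of the proton pump and lysosome list lay above (20.0%) and 1 below, with a median of 0.14 that turned to -0.07 with equal sums and to -0.10 under quantile normalization. Hspa8, the constitutive HSC70, was at 52.9, 131 and 24.9 FPKM and at 266, 240 and 175, a log2 fold change of 1.98 ± 0.53. Cct6a, of the chaperonin for actin and tubulin, lay below, at 94.0, 83.3 and 83.9 FPKM and then at 39.9, 58.9 and 62.4, while Tcp1, another subunit of the same ring, lay above, at 54.4, 68.6 and 47.0 and then at 118, 83.5 and 76.1. Subunits of one complex were therefore found on both sides.

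Secreted proteins and transporters of the ChP epithelium included the most abundant coding genes. Ttr had 20922, 31302 and 29741 FPKM in the libraries of 9 a.m. and 51514, 48953 and 32933 in those of 9 p.m., with a log2 fold change of 0.70 ± 0.46. As a share of the coding FPKM it was 8.09%, 9.34% and 9.74% and then 14.0%, 12.7% and 10.6%. On both scales the libraries did not overlap, and 9 p.m. replicate 3 lay close above the 9 a.m. values. Enpp2, autotaxin and the second most abundant coding gene, was at 14886, 18732 and 16409 FPKM and at 17826, 16447 and 18526, and overlapped, with a log2 fold change of 0.08 that turned negative under some of the alternatives run. Cab39l, an adaptor of the kinases that act on ion transporters, was at 263, 230 and 269 FPKM and at 359, 380 and 303, and Stk39, the kinase SPAK that phosphorylates NKCC1, at 270, 291 and 248 and at 298, 366 and 388. Both lay above at 9 p.m. by a narrow gap. Slc4a10, a sodium bicarbonate transporter, was at 263, 281 and 282 FPKM and at 327, 320 and 284, a log2 fold change of 0.17 that turned negative when coding genes were scaled to equal sums. Of the 26 ion and water transport genes tested, Stk39 and Slc4a10 were the 2 separated, and the list's median of 0.22 was -0.02 with equal sums and -0.05 under quantile normalization. Wfikkn2, a secreted inhibitor of growth factors, was at 7.60, 12.1 and 2.87 FPKM and at 23.3, 20.2 and 22.7. Of the 30 tested secreted and marker genes of the ChP, 22 had a higher mean. Ttr, Cab39l and Wfikkn2 were the 3 above and Kl the 1 below. The list's median of 0.17 was near the 0.16 over all genes, and was -0.07 with equal sums and -0.03 under quantile normalization.

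Thyroid hormone enters and acts in these cells through several proteins. Slc7a8, an amino acid exchanger that also carries thyroid hormone, had 59.1, 48.4 and 57.0 FPKM in the libraries of 9 a.m. and 6.46, 25.1 and 39.5 in those of 9 p.m., with a log2 fold change of -1.48 ± 0.63. The receptor gene Thrb was at 12.6, 10.3 and 29.2 FPKM and at 2.52, 6.85 and 5.70. These 2 of 8 lay below and Ttr above.

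Most genes of the basement membrane, the matrix under the epithelium, had lower means at 9 p.m. Of 17 tested genes of the basement membrane 13 had a lower mean, 3 lay below (17.6%) and none above, and the median log2 fold change was -0.45, which stayed below 0 with equal sums (-0.68), under quantile normalization (-0.56) and without 9 a.m. replicate 3 (-0.43). Lama5, the α5 chain of laminin, had 22.5, 24.6 and 18.7 FPKM in the libraries of 9 a.m. and 12.6, 13.4 and 11.8 in those of 9 p.m. Frem1, a matrix protein that anchors epithelium, was at 58.7, 61.5 and 54.1 FPKM and at 36.2, 36.8 and 49.96, and its relative Frem2 at 2.98, 3.38 and 6.85 and at 1.48, 1.72 and 2.35. As a share of the coding FPKM the list was at 0.150%, 0.127% and 0.130% and at 0.0669%, 0.0769% and 0.133%, so that 9 p.m. replicate 3 lay among the 9 a.m. values. Cdh3, P-cadherin, was at 52.8, 67.2 and 59.9 FPKM and at 26.5, 36.8 and 39.3, a log2 fold change of -0.81 ± 0.42. Kl, which encodes the coreceptor of FGF23, was at 628, 531 and 503 FPKM and at 429, 411 and 467. The 25 tight junction genes tested had no separated member, with 11 higher and 14 lower means. Cldn2, a claudin of leaky epithelia, was at 146, 145 and 236 FPKM and at 236, 158 and 166, and Ocln, occludin, at 52.9, 53.2 and 65.3 and at 56.7, 42.1 and 46.6.

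**Figure D3:**
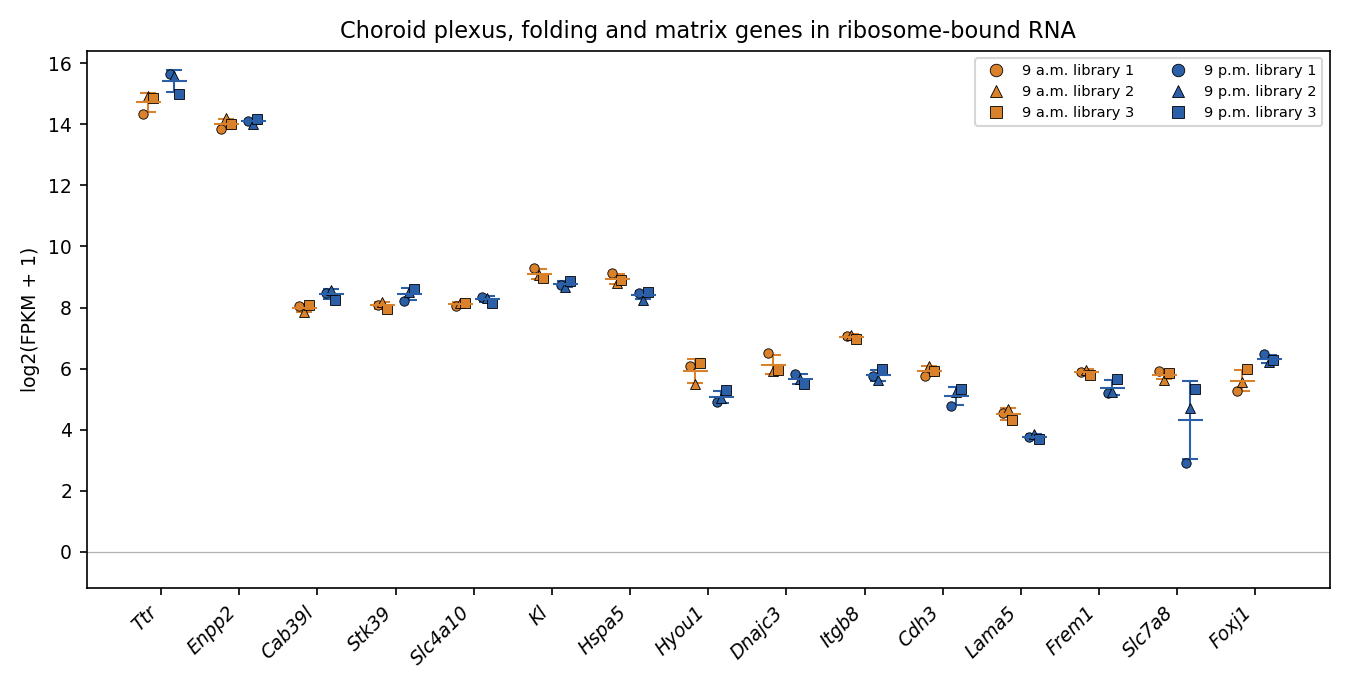
Choroid plexus, folding and matrix genes in ribosome-bound RNA, as log2(FPKM + 1) per library, with the mean and SD of 3 libraries for each time (9 a.m. in orange, 9 p.m. in blue). Hspa5, Hyou1, Itgb8, Cdh3, Lama5 and Frem1 lie lower at 9 p.m. and Ttr, Cab39l and Stk39 higher with no overlap, Itgb8 with a log2 fold change of -1.26, while Enpp2 overlaps.

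Among cilia genes and transcription factors the directions were split. Rsph9, of the radial spoke, had 89.1, 48.8 and 59.2 FPKM in the libraries of 9 a.m. and 121, 96.5 and 96.6 in those of 9 p.m., while Rsph4a, of the same structure, was at 80.2, 53.8 and 46.1 and at 27.7, 45.6 and 43.6. Rfx3, a regulator of cilia genes, lay below, at 46.3, 28.9 and 26.2 FPKM and then at 21.5, 24.8 and 16.7. Of the 28 cilia genes tested, 2 lay above and 2 below. Id3, an inhibitor of transcription factors downstream of BMP, was at 0, 16.1 and 11.8 FPKM and at 37.6, 64.8 and 81.2, a log2 fold change of 3.30 ± 0.98. Six3 was at 11.6, 15.9 and 0.282 FPKM and at 33.5, 28.6 and 18.3. Otx2, which maintains the identity of the tissue, was at 150, 166 and 184 FPKM and at 165, 184 and 174.

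Markers of hepatocytes and of ependyma differed in mean between the times, with 1 member separated in each list. All 8 tested markers of hepatocytes had lower means at 9 p.m., with a median log2 fold change of -2.29, which was -0.93 without 9 a.m. replicate 3, and 1 did not overlap. Ahsg, which encodes a plasma protein of liver, had 4.49, 12.8 and 12.6 FPKM in the libraries of 9 a.m. and 0, 0 and 2.62 in those of 9 p.m. Summed, the list held 0.10%, 0.0127% and 0.572% of the coding FPKM at 9 a.m. and 0.00363%, 0.0172% and 0.0789% at 9 p.m., so that 9 a.m. replicates 1 and 3 stood highest and 9 a.m. replicate 2 lay within the range of 9 p.m. Their part in the other results was not tested. Markers of ependyma, which also expresses Foxj1, held 0.0952%, 0.113% and 0.0865% and then 0.211%, 0.187% and 0.0923%, with 7 of 8 means higher, a median log2 fold change of 1.21 and Foxj1 the one member separated. Their part in the other results was likewise not tested. Of the 5 glial markers tested 3 had higher and 2 lower means at 9 p.m. Summed, the glial list held 0.00180%, 0.00540% and 0.0239% of the coding FPKM at 9 a.m. and 0.00498%, 0.00853% and 0.0121% at 9 p.m., so that 9 a.m. replicate 3 stood highest. Aldh1l1, of astrocytes, was the 1 member separated, at 3.54, 3.83 and 0 FPKM and at 8.44, 14.3 and 17.3.

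Fold changes differed with transcript length, and so did the zeros. When the 10262 tested coding genes were ordered by their longest transcript, the median log2 fold change was 0.57 in the 1026 shortest, up to 1472 nt, and -0.06 in the 1027 longest, from 7009 nt. Of the shortest 49.4% were at 0 in 9 a.m. replicate 3, against 8.09% in 9 p.m. replicate 2, and of the longest 11.5% and 1.27%. The difference in median log2(FPKM + 1) between the 2565 shortest and the 2565 longest genes was -0.64, 0.16 and -2.22 at 9 a.m. and -0.11, 0.49 and -0.33 at 9 p.m. Its mean was 0.92 higher at 9 p.m. (exact permutation test, two-sided, p = 0.3, where 3 against 3 libraries cannot go below 0.1), a step smaller than the spread among 9 a.m. libraries, and 0.26 without 9 a.m. replicate 3. The lists also differ in length. The median longest transcript was 765 nt for complex IV, 1141 nt for complex I and 977 nt for the small ribosomal subunit, and 7622 nt for the basement membrane. How far the length of transcripts takes part in the medians of these lists was not tested. Among the 4683 coding genes above an FPKM of 1 in every library, the medians of the 468 shortest and the 469 longest were 0.38 and -0.10.

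**Figure D4:**
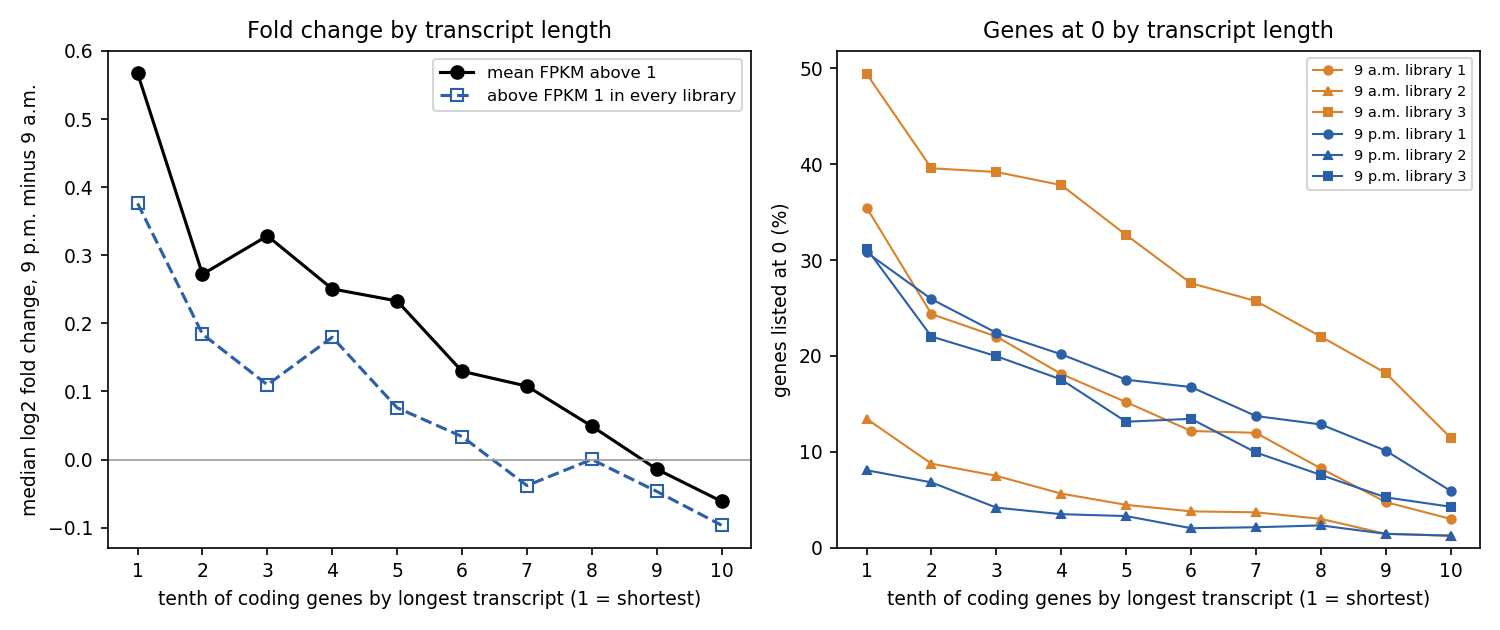
Left, median log2 fold change (9 p.m. minus 9 a.m.) of coding genes in 10 classes of transcript length, for genes with a mean FPKM above 1 (filled) and genes above 1 in every library (open). Right, share of the tested coding genes listed at 0 in each library, which is lower for the longest than for the shortest transcripts in all 6 and highest in 9 a.m. replicate 3.

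To see whether the values of the bound RNA were matched in the unbound RNA, the supernatant libraries, which carry the same pool numbers, were set beside them. Hspe1 was at 65.4, 32.9 and 41.2 FPKM in the supernatant of 9 a.m., against 46.1, 0.232 and 17.7 in that of 9 p.m., and so was not near 0 there at 9 a.m. Itgb8 was at 116, 134 and 127 FPKM and at 83.9, 94.8 and 86.0 in the supernatant, below at 9 p.m. with no overlap as in the bound RNA. Per1 was at 21.8, 12.7 and 15.9 FPKM and at 30.6, 36.4 and 24.8, and Per2 at 3.04, 0.449 and 8.30 and at 25.4, 15.1 and 18.2. Both lay above at 9 p.m. in the unbound RNA too, whereas Arntl (7.88, 13.1 and 3.38 FPKM and then 9.93, 0 and 5.66), Clock, Npas2 and Bhlhe40, the other 4 clock genes separated in the bound RNA, overlapped there. Tef, which just overlapped in the bound RNA, was at 5.90, 6.33 and 16.7 FPKM and at 68.8, 85.2 and 49.7. Ttr was at 37447, 25293 and 21463 FPKM and at 30323, 23434 and 26441, and overlapped. Sesn2, which lay below in the bound RNA, was at 0.0646, 5.56 and 2.35 FPKM and at 11, 17.0 and 9.04 in the supernatant. The difference between fractions in the effect of time was tested by limma as an interaction over all 12 libraries. Of 150 genes named by rule and tested, the lowest adjusted p was 0.196 (Mrpl52). With each pool as a block across both fractions (the replicate block), limma gave Mrpl52 an adjusted p of 0.0451 and it was the one named gene called. Mrpl52 was at 0, 0.541 and 0 FPKM in the bound RNA of 9 a.m. and at 29.2, 115 and 146 in that of 9 p.m. In the supernatant it was at 24.3, 76.9 and 29.8 FPKM and at 1.29, 17.6 and 35.1, where the times overlapped.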

How the data were processed

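The 6 TRAP and 6 supernatant libraries were grouped by the time and fraction in their labels. The authors deposited FPKM values per gene, made per the labels with STAR 2.4.0 on mm10 and with Cufflinks and Cuffdiff. The sources used here give neither the strand setting nor the annotation. The table held 24354 gene rows, of which 27 whose names had turned into dates were left out. Of the 24327 kept, 23954 (98.5%) were matched to GENCODE M21 for biotype and position, 665 through an older name. Depth is unknown, since FPKM keeps no read counts.

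Values below 0.001 FPKM were read as 0. The test took every gene whose FPKM averaged above 1 in the 6 TRAP libraries, on log2(FPKM + 1) with limma 3.58.1 (trend) in R 4.3.3, with Benjamini-Hochberg adjustment over all genes tested. A fold change on this scale understates the change of low genes. Calls were made below an adjusted p of 0.05 and beyond a log2 fold change of 0.4 in size. Genes were also counted where the 2 times had no overlapping values. The interaction was fitted in all 12 libraries, and again with the pool as a block, since both fractions carry the same pool numbers. The length comparison used an exact permutation test (scipy 1.17.1).

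Named genes were the 15 of lowest p in each direction, up to 4 members of each of 55 gene lists with a mean FPKM of at least 5 and no overlap (where there was none, the member of lowest p), Ttr, Kl, Rpl10a, Foxj1, the clock genes and the 10 most abundant coding genes. The comparison and the lists were chosen with earlier results of these data known. Alternatives were other pseudocounts, filters, scalings and fits, a block of same-numbered libraries, and leaving out each library. Some genes of the lists are counted in them but not reported by name here.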

Additional observations from a re-analysis of the deposited data

Results flagged for a closer look

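The effect of time on Mir546 differed between bound and unbound RNA by limma's interaction test (adjusted p = 0.0236), the only one of 11156 genes with an adjusted p under 0.05 in the fit without a block, where 429 had an unadjusted p under 0.05. In the bound RNA it was listed at 0 in every 9 a.m. library and in 9 p.m. replicate 1, and at 260 and 49.2 FPKM in 9 p.m. replicates 2 and 3. The supernatant held 572, 3026 and 2945 FPKM in the 9 a.m. libraries and 0 in every 9 p.m. library. Leaving out any 9 a.m. library of either fraction, or any 9 p.m. library of the supernatant, left 0 genes called. With the replicate block, Mir546 and Mrpl52 were called (adjusted p = 0.0451 each).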

How the results depend on the processing

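The count of called genes stayed at 0 in both directions with another pseudocount, filter, scaling or limma setting. It also did so in one fit of all 12 libraries, and with same-numbered libraries of the 2 times set as a block. Leaving out 1 library gave 0 to 4 genes higher and 0 to 1 lower: without 9 a.m. replicate 2 these were Hspe1, Atp5j2, Dydc2 and Mrpl13 (limma adjusted p = 0.0431 each) and Mir8094 (0.00214), and without 9 p.m. replicate 3 Scarna17 (0.000152). Of the 9 a.m. libraries, replicate 2 had the fewest genes at 0. Genes above at 9 p.m. with no overlap numbered 281 where FPKM was above 1 in every library (fewer genes tested) and 391 with equal sums, against 602, and 898 to 1601 with 1 library left out, where fewer libraries need to be apart. Genes below numbered 197, 525 and, under quantile normalization, 566, against 310, and 494 to 897 with 1 library left out. The short against long difference ranged from 0.26 to 1.45 with 1 library left out. The interaction gave 1 gene, 0 with a pseudocount of 0.1, 0 to 1 with 1 library left out, and 2 (Mir546 and Mrpl52) with the replicate block. Deviations of same-numbered libraries from the means of their times correlated at -0.0073, 0.102 and 0.00572. Such values cannot show whether the numbers pair libraries of different times, and the pools held different mice. Of 1785 values for genes of the text, 1769 were counted as the same and 12 as reversed. These 12 do not hold every change of sign. Nr1d2 was not among them, though its log2 fold change of 0.006 lay between -0.27 and 0.47 under the alternatives run. For Rpl10a the log2 fold change of 0.06 became -0.0585 (pseudocount 5), -0.13 (equal sums), -0.44 (quantile) and -0.76 (array weights), and -1.01 to 0.82 with 1 library left out. With 1 library left out, Cry2 ranged from -0.10 to 1.22 and Nr1d1 from -1.54 to 0.0542. With equal sums and under quantile normalization, Enpp2 was at -0.16 and -0.037 and Slc4a10 at -0.0708 and -0.13. The cause was not tested for any of these.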
